A study of Mus musculus with 2 samples.

Results

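The 9 genes described here, Apoe, Clu, Apod, Abca1, Abcg1, Abca7, Lrp1, Vldlr and Sorl1, encode carriers, transporters and receptors of brain lipoproteins. They were taken by symbol and are 9 of the 31053 genes counted in every nucleus. The data are 2 single-nucleus RNA-seq libraries of entorhinal cortex, each made from tissue pooled from 5 male APP/PS1 mice. APP/PS1 mice carry mutant transgenes of the amyloid precursor protein and of presenilin-1 and deposit amyloid plaques with age. OLE (N-oleoyl-leucine, C18:1-Leu), a product of the enzyme PM20D1, was given at 25 mg/kg/day in alkaline drinking water to the mice of the OLE library, and DMSO, its vehicle, was given in the same way to the mice of the vehicle library. Treatment ran for 3 months, from 15 to 18 months of age, and tissue was taken at 18 months in both groups. All mice of both groups carried the transgenes. The line came from The Jackson Laboratory, and its background strain and transgene promoters are not spelled out in the sources used here. No library of wild-type mice was analysed here. Since tissue was pooled, the mice of a library cannot be told apart.

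Lipid moves between brain cells on particles built around apolipoproteins that are made inside the brain, above all by astrocytes and also by microglia. ABC transporters of the cell membrane load these particles with cholesterol and phospholipid, and receptors of the low-density lipoprotein (LDL) receptor family take them up into neurons and glia. Apoe, Clu, Abca7 and Sorl1 are the mouse counterparts of genes linked to the risk of Alzheimer's disease in humans.

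The question asked of the libraries was in which cell types these genes are found and whether their levels differed between OLE and vehicle. The vehicle library held 6745 nuclei and 70845739 unique molecular identifiers (UMIs, which mark single captured RNA molecules). In the OLE library there were 6173 nuclei with 69485537 UMIs. The libraries had 14 barcodes in common. Removal of likely doublets kept 6414 nuclei of vehicle and 5884 of OLE, which were clustered without the 9 genes, so that their levels did not define the clusters. Glutamatergic-like, GABAergic-like, oligodendrocyte-like, oligodendrocyte precursor-like (OPC-like), microglia-like, astrocyte-like and vascular leptomeningeal-like clusters were named from marker genes. No cluster was named endothelial-like, and a mural-like cluster held 11 vehicle and 16 OLE nuclei, too few for ratios. Clusters that raised markers of several cell types stayed unnamed by a rule set after the clusters had been seen, and held 44.5% of the nuclei in vehicle and 42.1% in OLE, with 11.2% and 16.9% of the UMIs.

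In the named clusters depth differed more between cell types than between libraries. Astrocyte-like nuclei numbered 121 in vehicle and 136 in OLE, with medians of 5866 and 5740 UMIs. There were 337 and 270 microglia-like nuclei (medians 2448 and 2348 UMIs), 585 and 528 oligodendrocyte-like nuclei (3484 and 3084.5) and 101 and 84 OPC-like nuclei (7046 and 7313). Vascular leptomeningeal-like nuclei, the fibroblast-like cells of the meninges and vessel walls, numbered 87 and 85 (6073 and 5690). Neurons were much deeper. The 324 and 352 GABAergic-like nuclei had medians of 18693.5 and 16628 UMIs, and the 1991 and 1934 glutamatergic-like nuclei had medians of 21065 and 19258.5 UMIs. Unnamed nuclei differed most between the libraries, with medians of 2288 UMIs in vehicle and 4393 UMIs in OLE.

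Levels are UMIs per 1000000 UMIs of the cell type in a library (CPM), and differences are log2 ratios of the OLE level to the vehicle level. Since each condition has a single library, nothing was tested and no difference has a replicate check. The intervals in parentheses are exact 95% intervals, Poisson for levels and binomial for ratios and shares, and cover counting error only. A gene was compared in a cell type where it had at least 100 UMIs over both libraries. Below that number no ratio between the libraries is given. A ratio was counted as past the fold at a log2 of 0.5 or more, or of −0.5 or less.

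The carrier genes, and none of the transporter or receptor genes, passed this fold at the minimum of 100 UMIs, and each time they were higher in OLE. In astrocyte-like nuclei 2 of the 5 members with enough UMIs passed it, Apoe and Clu, where 4.18% of the 3012 genes compared there were higher past the fold and 3.69% lower. In microglia-like nuclei Apoe alone of 6 members passed, against 3.54% of 3676 genes higher and 2.42% lower. In oligodendrocyte-like nuclei 2 of 7 members passed, Apoe and Apod, against 4.7% of 5828 genes higher and 1.8% lower. Apoe and Clu also were the members past the fold in 3 further cell types. These were 2 of 5 members in OPC-like nuclei, where 4.72% of 2584 genes were higher and 3.25% lower, and 2 of 6 in vascular leptomeningeal-like nuclei, where 10.7% of 2941 genes were higher and 6.39% lower. In GABAergic-like nuclei they were 2 of 9, against 7.77% of 9636 genes higher and 0.571% lower. Glutamatergic-like nuclei had none of 9 past the fold in either direction, with 5.8% of 14257 genes higher and 0.484% lower. Over the members compared, the median log2 ratio was 0.05 in astrocyte-like, −0.12 in microglia-like, 0.33 in oligodendrocyte-like, 0.38 in OPC-like, 0.23 in vascular leptomeningeal-like nuclei, and for neurons it was 0.20 (GABAergic-like) and 0.13 (glutamatergic-like). The medians over all genes compared lay between −0.03 and 0.08 in these cell types.

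Apoe, the main protein of brain lipoprotein particles, was most abundant in astrocyte-like nuclei in both libraries among the 7 cell types, with subclusters of microglia given below. These nuclei held 2069 Apoe UMIs in vehicle, or 2659.7 CPM (2546 to 2777), and 4678 UMIs in OLE, or 5352 CPM (5199.9 to 5508). The OLE level was 2.01-fold the vehicle level, a log2 ratio of 1.01 (0.93 to 1.08). Each of these nuclei had at least 1 Apoe UMI in both libraries. With every nucleus thinned to 1000 UMIs, the median astrocyte-like nucleus held 2 Apoe UMIs in vehicle (quartiles 1 and 4) and 4 in OLE (quartiles 2 and 7), and the highest held 24 and 34.

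The astrocyte difference depended on which nuclei were called astrocyte-like. With log-normalized counts before clustering, the class held 121 vehicle and 175 OLE nuclei, and the log2 ratio fell to 0.28 for Apoe and 0.12 for Clu, below the fold. Abca1 (log2 −0.69) and Lrp1 (log2 −0.50) were then past the fold downward. The nuclei gained there were mostly 38 OLE nuclei, and no vehicle nucleus, that are glutamatergic-like in the clustering used here. Their median depth was 13750 UMIs, and they held 59.1 CPM of Apoe, 167 CPM of Slc1a2 and 256 CPM of the glutamatergic marker Slc17a7, against 5352 CPM of Apoe in the OLE nuclei shared by both classes. Slc1a2, the glutamate transporter that marks astrocytes, was at 8959 CPM in the shared nuclei of both libraries, and Slc17a7 at 52.5 CPM.

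Microglia-like nuclei had the next highest Apoe level, with 2068 CPM in vehicle (1974 to 2165) and 3133 in OLE (3005 to 3265), a log2 ratio of 0.60 (0.51 to 0.69). Vascular leptomeningeal-like nuclei followed with 1035 and 2271 CPM (log2 1.13, 1.004 to 1.26), then OPC-like nuclei with 669 and 1366 (1.03, 0.87 to 1.19). Oligodendrocyte-like nuclei held 389 and 788 CPM, a log2 ratio of 1.02 (0.89 to 1.14). Neurons stood far below the glia. Apoe was at 38.6 and 72.3 CPM in GABAergic-like nuclei (log2 0.91, 0.69 to 1.13) and at 34.6 and 40.3 in glutamatergic-like nuclei (log2 0.22, 0.12 to 0.32), where the direction turned to −0.20 with nuclei thinned to 1000 UMIs. This order of the 7 cell types was the same in both libraries, and in vehicle the GABAergic-like and glutamatergic-like levels did not differ beyond counting error (log2 0.16, −0.03 to 0.35).

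**Figure D1:**
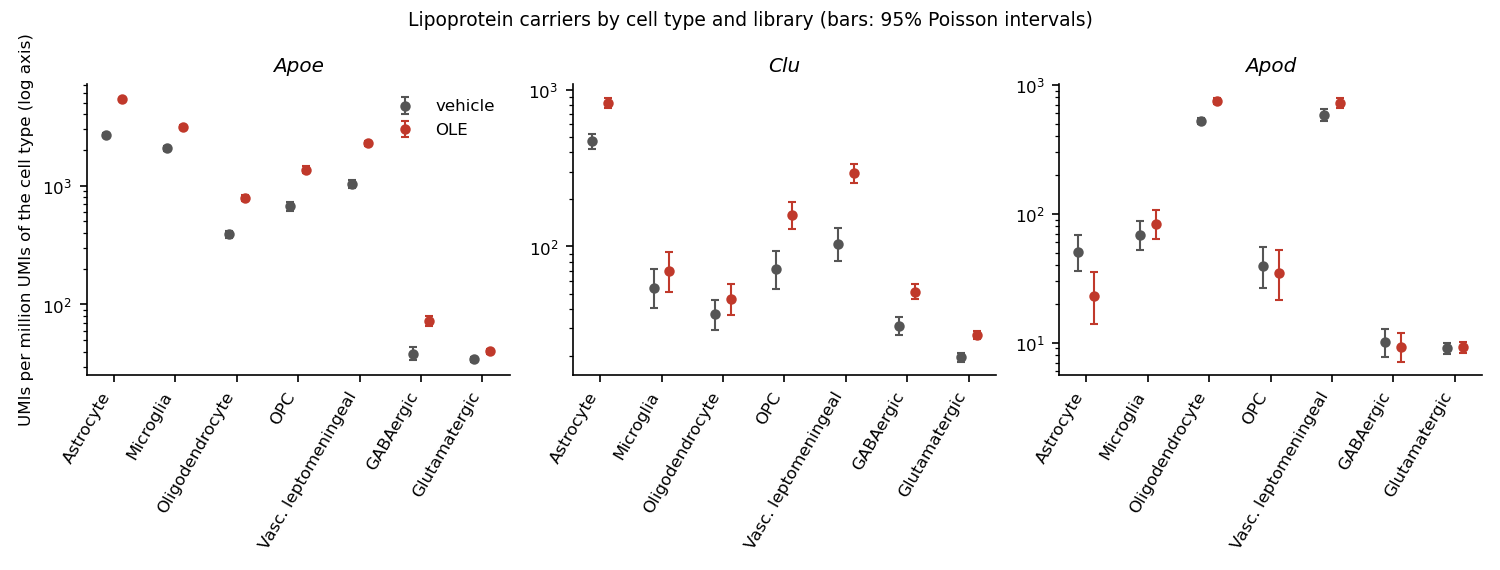
Levels of the carrier genes Apoe, Clu and Apod by cell type in the vehicle and OLE libraries, in CPM on a log axis, with exact 95% Poisson intervals as bars (1 library per condition). Apoe and Clu are highest in astrocyte-like nuclei, and Apod is highest in oligodendrocyte-like and vascular leptomeningeal-like nuclei.

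Glial nuclei held far more of the Apoe UMIs than of all UMIs. Astrocyte-like nuclei held 1.17% of the UMIs of the retained vehicle nuclei but 16.5% of the Apoe UMIs there, and 1.36% and 22.0% in OLE. Microglia-like nuclei held 14.5% of the Apoe UMIs in vehicle and 10.6% in OLE, oligodendrocyte-like nuclei 6.75% and 6.58%, OPC-like nuclei 4.11% in both, and vascular leptomeningeal-like nuclei 5.50% and 7.50%. Glutamatergic-like nuclei, with 70.4% of all vehicle and 65.7% of all OLE UMIs, held 12.9% and 8.03% of those of Apoe. The unnamed clusters together held 37.5% in vehicle and 38.8% in OLE, with Apoe at 629 and 757 CPM (log2 0.27, 0.22 to 0.32). They differ in make-up between the libraries, since cluster 0 had 2240 vehicle and 300 OLE nuclei, cluster 1 had 234 and 1723, and cluster 3 had 383 and 456. Within these clusters the Apoe log2 ratios were 0.23 (0.07 to 0.39), 0.44 (0.31 to 0.57) and 0.43 (0.33 to 0.53). Over all retained nuclei Apoe was at 189 CPM in vehicle (12518 UMIs) and 330 CPM in OLE (21251 UMIs), a log2 ratio of 0.81 (0.77 to 0.84). The make-up of these nuclei differed too. Glutamatergic-like nuclei, poor in Apoe, went from 70.4% to 65.7% of all UMIs, and the unnamed clusters from 11.2% to 16.9%. The part of this make-up in the ratio over all nuclei was not tested.

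Apoe UMIs were found in many neurons too. A UMI of Apoe was present in 50.03% of the vehicle and 51.3% of the OLE glutamatergic-like nuclei, cells in which Apoe is normally little expressed, at median depths of 21065 and 19258.5 UMIs. Thinned to 1000 UMIs, these shares were 5.02% and 4.45%, which serve here as a background at equal depth. A background with a fixed number of UMIs per nucleus was not tested, and the 1991 and 1934 glutamatergic-like nuclei held 1615 and 1706 Apoe UMIs, where the 585 and 528 oligodendrocyte-like nuclei held 845 and 1399. At that depth the share was 78.5% in vehicle and 91.2% in OLE for astrocyte-like nuclei (100% in both before thinning), and 55.4% and 59.0% for microglia-like nuclei (73.6% and 77.0%). It rose from 32.4% to 48.1% for oligodendrocyte-like nuclei (69.7% and 83.0% before thinning) and from 55.4% to 69.0% for OPC-like nuclei (93.1% and 98.8%). In vascular leptomeningeal-like nuclei the thinned share was 49.4% in both libraries (85.1% and 82.4%). GABAergic-like nuclei, at 3.09% and 5.40% (52.5% and 46.9%), lay near the glutamatergic background. Thinning left out 1 vehicle and 2 OLE microglia-like nuclei and 1 vehicle oligodendrocyte-like nucleus, and no nucleus of the other named classes with ratios.

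Single nuclei carried much of the Apoe of GABAergic-like nuclei in OLE and of vascular leptomeningeal-like nuclei in both libraries. In GABAergic-like nuclei the 3 highest OLE nuclei held 108, 48 and 17 of 467 Apoe UMIs, while the 3 highest vehicle nuclei held 6, 5 and 4 of 266. Without the 2 highest nuclei of each library, a choice made after seeing the data, the levels were 37.2 and 48.4 CPM and the log2 ratio was 0.38 (0.14 to 0.62), below the fold. Both high OLE nuclei lay in GABAergic-like cluster 15, where Apoe was at 43.3 CPM in vehicle and 121 in OLE (log2 1.48), while cluster 8 held 36.5 and 47.5 CPM (log2 0.38). In vascular leptomeningeal-like nuclei the 2 highest nuclei held 41.4% of the vehicle and 47.2% of the OLE Apoe UMIs, and without them the levels were 676 and 1286 CPM (log2 0.93). In both vascular leptomeningeal-like clusters OLE was higher, at 1690 against 739 CPM in cluster 22 (log2 1.19) and 3478 against 1507 in cluster 23 (log2 1.21).

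**Figure D2:**
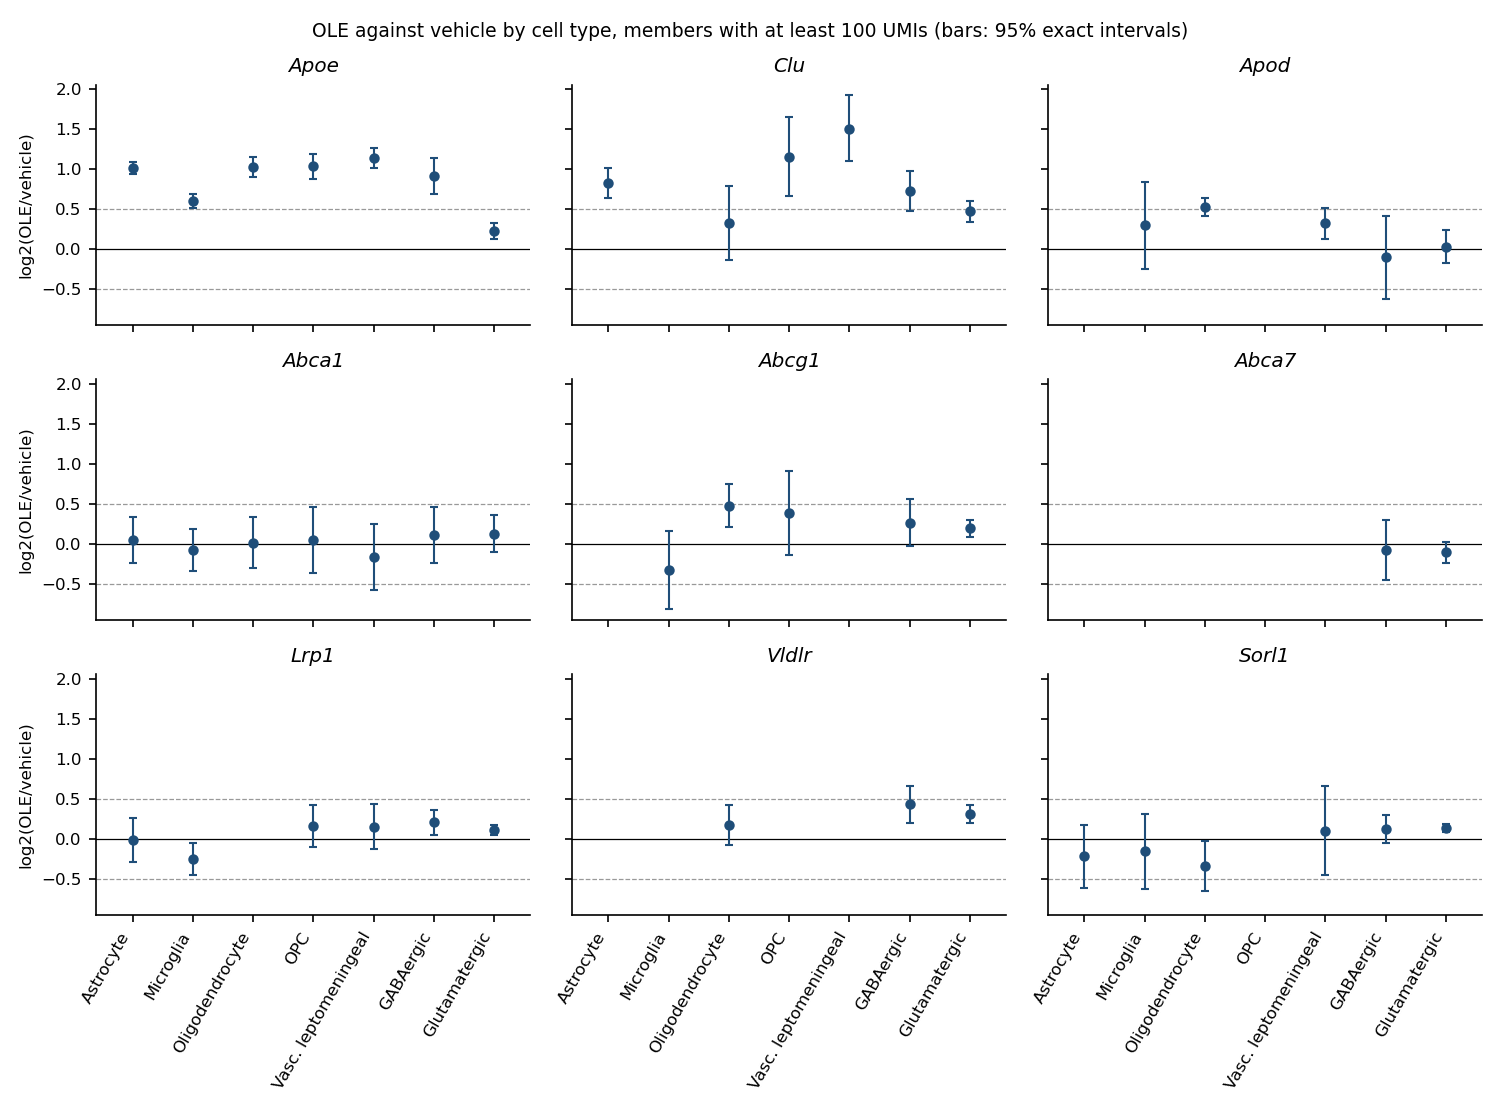
Log2 ratios of the OLE level to the vehicle level for the 9 genes in 7 cell types, for gene and cell type pairs with at least 100 UMIs over both libraries, with exact 95% binomial intervals as bars and dashed lines at log2 0.5 and −0.5. Apoe lies above 0.5 in 6 cell types, and its glutamatergic ratio of 0.22 turned to −0.20 with thinned nuclei.

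Apoe is a short gene of 3.08 kb, of which 69.4% is exonic, and short genes as a class were higher in OLE. Genes under 10 kb had median log2 ratios of 0.19 in astrocyte-like nuclei (127 genes, 16.5% of them higher past the fold), 0.16 in microglia-like nuclei (193 genes, 19.2%) and 0.23 in oligodendrocyte-like nuclei (433 genes, 19.2%). The median was 0.13 in OPC-like nuclei (67 genes, 22.4%) and 0.67 in vascular leptomeningeal-like nuclei (191 genes, 58.6%). In neurons it was 0.29 for GABAergic-like (1348 genes, 25.5%) and 0.21 for glutamatergic-like nuclei (2957 genes, 14.3%). Genes over 50 kb had medians between −0.08 and 0.00 in the same cell types. With the median of its length class subtracted, an alternative chosen after seeing the data, Apoe stayed past the fold in astrocyte-like (0.82), oligodendrocyte-like (0.78), OPC-like (0.90) and GABAergic-like nuclei (0.61). It fell below the fold in microglia-like (0.44) and vascular leptomeningeal-like nuclei (0.46), and came to 0.02 in glutamatergic-like nuclei. The part of gene length in the Apoe difference was not tested.

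**Figure D3:**
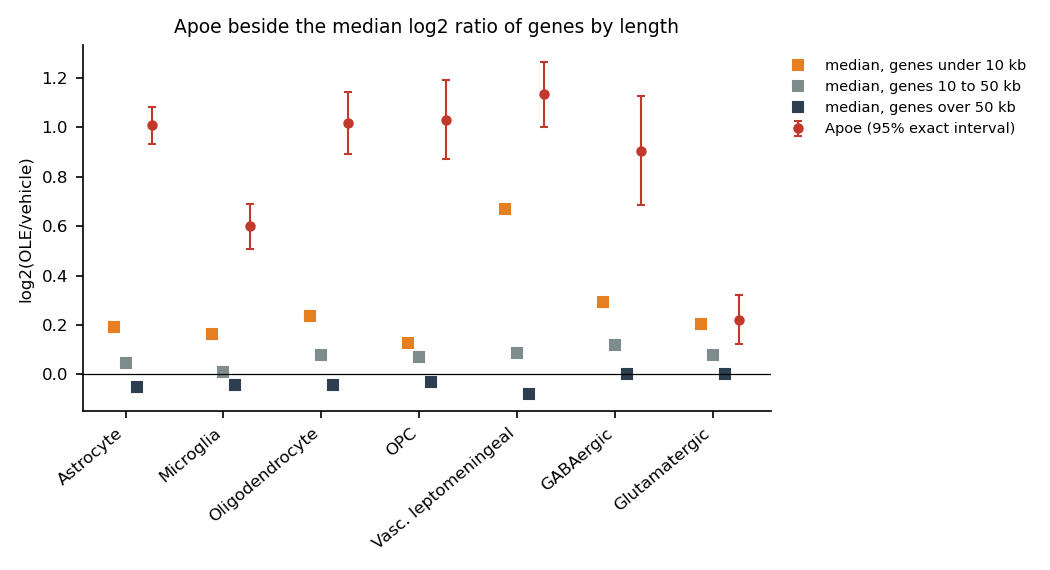
Log2 ratio of Apoe in each cell type beside the median log2 ratio of all genes compared there that are under 10 kb, 10 to 50 kb and over 50 kb long (OLE over vehicle, 1 library each). The median of the shortest genes is highest in vascular leptomeningeal-like nuclei, at 0.67, and Apoe there is at 1.13. In glutamatergic-like nuclei Apoe (0.22) and the shortest genes (0.21) lie together, and Apoe turned to −0.20 with thinned nuclei.

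The transcript of the secreted protein Apoe is translated at the endoplasmic reticulum (ER). The summed level of a list of housekeeping transcripts translated there also was higher in OLE. In astrocyte-like, microglia-like and oligodendrocyte-like nuclei most genes of the list did not pass the fold. Of a list of 37 housekeeping genes translated at the ER, 5 of the 17 with enough UMIs were past the fold in astrocyte-like nuclei, and the summed level was 2433 CPM in vehicle and 3254 in OLE (log2 0.42). Psap was their most abundant gene there, and none of the 17 was lower past the fold. The same sum had log2 ratios of 0.35 in microglia-like nuclei (4201 and 5368 CPM, 5 of 21 genes higher), 0.41 in oligodendrocyte-like nuclei (2418 and 3216, 8 of 26) and 0.67 in OPC-like nuclei (2054 and 3260, 9 of 15). It was 0.81 in vascular leptomeningeal-like nuclei (3523 and 6178, 17 of 22), 0.63 in GABAergic-like nuclei (1466 and 2273, 21 of 33) and 0.55 in glutamatergic-like nuclei (1229 and 1794, 20 of 37). A list of 30 housekeeping genes translated in the cytosol had a sum of 1869 and 2039 CPM in astrocyte-like nuclei (log2 0.13, 2 of 14 genes higher), and the difference between the lists was not tested. The other sums of the list had log2 ratios of 0.26 in microglia-like (3 of 19 genes higher), 0.43 in oligodendrocyte-like (9 of 23), 0.29 in OPC-like (2 of 9), 0.71 in vascular leptomeningeal-like (13 of 20), 0.60 in GABAergic-like (16 of 28) and 0.41 in glutamatergic-like nuclei (12 of 29). The 7 nuclear-retained RNAs, led by Malat1, had summed log2 ratios between 0.06 and 0.22. Over all genes compared, 3.54% to 10.7% were higher past the fold by cell type. The housekeeping lists were chosen with earlier results of these data known. The paper reports some of their genes as higher with OLE, among them Calr, Hspa5, Itm2b and Hsp90ab1. The sums are therefore not independent of those results. The part of RNA outside the nucleus in the Apoe difference was not tested.

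The summed level of astrocyte markers changed little in the other cell types named next. This sum of 10 genes was 764 CPM in vehicle and 758 in OLE in glutamatergic-like nuclei (log2 −0.01, Slc1a2 the most abundant). It was 666 and 642 CPM in oligodendrocyte-like nuclei (log2 −0.05, Slc1a3), 919 and 928 in microglia-like nuclei (log2 0.01, Slc1a2) and 6591 and 6687 in OPC-like nuclei (log2 0.02, Gpc5). None of these markers was at 0 in either library in these cell types. Within astrocyte-like nuclei the astrocyte markers themselves were at 29514 CPM in vehicle and 31533 in OLE (log2 0.10), with Gpc5 the most abundant and 2 of 10 higher past the fold and none lower. Vascular leptomeningeal markers were lower there, with 215 and 138 CPM (log2 −0.63, −0.98 to −0.29, 1 of 10 genes with enough UMIs and that one not past the fold, Cped1 the most abundant, Lum at 0 in both libraries and Slc47a1 in vehicle). The 18 neuronal genes were at 11930 and 10307 CPM (log2 −0.21, none of 17 past the fold, Celf2 the most abundant). The part of these shifts in the astrocyte ratios was not tested. Sums of the markers of other glia in GABAergic-like and astrocyte-like nuclei are not given here.

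Vascular leptomeningeal-like nuclei differed between libraries in other ways. Mitochondrial genes gave 7.30% of their UMIs in vehicle and 6.63% in OLE, and 22 vehicle and 26 OLE nuclei had at least 5% of such UMIs. GABAergic markers there had a summed level of 386 CPM in vehicle and 1063 in OLE (log2 1.46, 3 of 3 genes with enough UMIs past the fold, Erbb4 the most abundant at 219 and 529, none at 0). OPC markers were at 198 and 435 CPM (log2 1.13, 3 of 3 genes, Pdgfra the most abundant, Neu4 at 0 in both libraries). A list of 18 neuronal genes went the other way there, with 14787 and 10822 CPM (log2 −0.45, 6 of 17 genes lower past the fold and none higher, Celf2 the most abundant). The markers of the class itself were at 7432 and 6814 CPM (log2 −0.13), with 3 of 9 genes higher past the fold and none lower. The part of these differences in the Apoe and Clu ratios of the class was not tested.

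Within the microglia-like cluster, Apoe separated the subclusters far more than the libraries. The nuclei fell into a homeostatic-like subcluster (167 vehicle and 136 OLE nuclei), a subcluster like disease-associated microglia (DAM-like, 157 and 117 nuclei), 14 border macrophage-like nuclei and 16 unnamed nuclei with raised GABAergic markers. The 9 genes were left out of the genes used for this clustering as well. Apoe was at 474 CPM in vehicle and 723 in OLE in homeostatic-like nuclei, at 3496 and 5229 in DAM-like nuclei and at 11924 and 17153 in the border macrophage-like nuclei. OLE was higher in homeostatic-like and DAM-like nuclei, with log2 ratios of 0.61 (0.34 to 0.88) and 0.58 (0.48 to 0.68). The border macrophage-like nuclei had 170 and 355 Apoe UMIs (log2 0.52, 0.26 to 0.80), but these came from only 6 vehicle and 8 OLE nuclei. The DAM-like level exceeded the homeostatic-like level 7.38-fold in vehicle (log2 2.88, 2.67 to 3.10) and 7.23-fold in OLE (log2 2.85, 2.66 to 3.06). DAM-like nuclei, 46.6% of the vehicle and 43.3% of the OLE microglia-like nuclei, held 78.7% and 71.6% of the microglial Apoe UMIs. The 6 vehicle and 8 OLE border macrophage-like nuclei held 9.35% and 15.8%.

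Abca1, which exports cholesterol and phospholipid to apolipoproteins, went the other way between the subclusters. It was at 405 CPM in vehicle and 384 in OLE in homeostatic-like nuclei, and at 239 and 237 in DAM-like nuclei, a log2 ratio of DAM-like to homeostatic-like of −0.76 in vehicle (−1.13 to −0.40) and −0.70 in OLE (−1.13 to −0.27). Lrp1, a large endocytic receptor for Apoe-bearing particles, did not differ beyond counting error between the subclusters, with 583 against 600.5 CPM in vehicle (log2 0.04, −0.22 to 0.30) and 477 against 551 in OLE (log2 0.21, −0.11 to 0.53). Sorl1 was lower in DAM-like nuclei in vehicle (33 against 58 UMIs, log2 −0.71, −1.38 to −0.07) and did not differ in OLE (24 and 24 UMIs, log2 0.11, −0.77 to 0.99). The 15 Vldlr UMIs of the vehicle DAM-like nuclei stood against 1 UMI in OLE. Clu, Apod, Abcg1 and Abca7 had at most 48 UMIs in a subcluster and library.

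**Figure D4:**
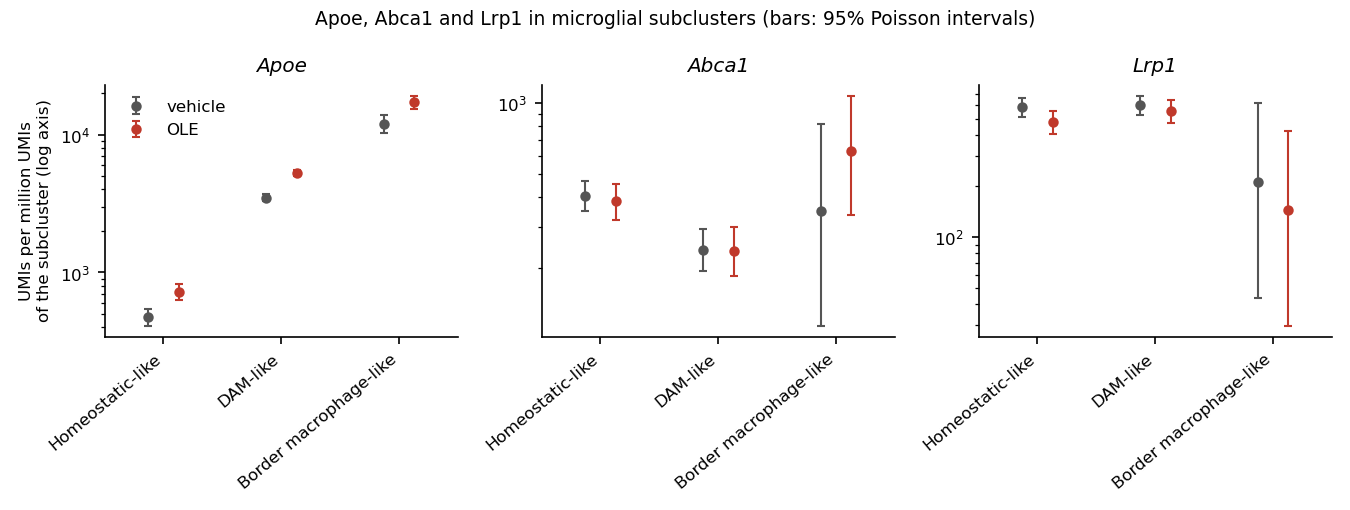
Levels of Apoe, Abca1 and Lrp1 in the homeostatic-like, DAM-like and border macrophage-like subclusters of the microglia-like cluster, in CPM of the subcluster on a log axis, with exact 95% Poisson intervals as bars (1 library per condition). Apoe rises from homeostatic-like (474 and 723) over DAM-like (3496 and 5229) to border macrophage-like nuclei (11924 and 17153), and Abca1 is lower in DAM-like than in homeostatic-like nuclei in both libraries.

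Clu, also called clusterin or apolipoprotein J, is a secreted chaperone carried on lipoprotein particles, and was likewise highest in astrocyte-like nuclei. They held 364 Clu UMIs in vehicle, or 468 CPM (421 to 519), and 722 in OLE, or 826 CPM (767 to 889). The log2 ratio was 0.82 (0.64 to 1.01), and fell to 0.12 with the log-normalized classes described above. Vascular leptomeningeal-like nuclei held 104 CPM in vehicle and 293 in OLE (69 and 206 UMIs, log2 1.502, 1.10 to 1.92), the largest ratio of any member in any cell type compared. OPC-like nuclei held 71.4 and 158 CPM (55 and 101 UMIs, log2 1.15, 0.66 to 1.65). In GABAergic-like nuclei Clu was at 31.2 and 51.4 CPM (log2 0.72, 0.47 to 0.97) and in glutamatergic-like nuclei at 19.6 and 27.1 (log2 0.47, 0.34 to 0.59). The glutamatergic ratio passed the fold at 0.50 with no doublets left out and at 0.52 with thinned nuclei. In oligodendrocyte-like nuclei the levels, 36.9 and 46.2 CPM, did not differ beyond counting error (log2 0.33, −0.14 to 0.79), and microglia-like nuclei held 48 and 50 UMIs. Astrocyte-like and vascular leptomeningeal-like nuclei led the order in both libraries. In vehicle OPC-like did not differ from microglia-like nuclei, nor oligodendrocyte-like from GABAergic-like nuclei, and in OLE microglia-like, GABAergic-like and oligodendrocyte-like nuclei did not differ from neighbour to neighbour.

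Of all Clu UMIs a larger part lay in neurons than of all Apoe UMIs, although these nuclei held fewer UMIs of Clu than of Apoe. Glutamatergic-like nuclei held 35.1% of all Clu UMIs in vehicle and 28.2% in OLE, and the share with a Clu UMI was 34.5% and 42.4%, or 2.11% and 3.10% thinned to 1000 UMIs. Astrocyte-like nuclei stood at 81.8% and 91.2% unthinned and at 33.1% and 46.3% thinned. The number of Apoe UMIs per Clu UMI also varied between cell types. It was 5.68 in astrocyte-like nuclei in vehicle and 6.48 in OLE. It rose to 37.9 and 45.0 in microglia-like nuclei and 10.6 and 17.1 in oligodendrocyte-like nuclei. In neurons it was low, at 1.76 (1.62 to 1.91) and 1.49 (1.38 to 1.60) in glutamatergic-like and 1.24 and 1.41 in GABAergic-like nuclei, below the 5.40 and 5.80 of the unnamed clusters.

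Apod, a small lipid-binding carrier of the lipocalin family, had another pattern, highest in oligodendrocyte-like and vascular leptomeningeal-like nuclei. Oligodendrocyte-like nuclei held 1137 Apod UMIs in vehicle, or 524 CPM (494 to 555), and 1337 in OLE, or 754 CPM (714 to 795). This log2 ratio of 0.52 (0.41 to 0.64) lay just past the fold, and fell to 0.38 as mean UMIs per nucleus and to 0.44 both with thinned nuclei and with the length class subtracted. Vascular leptomeningeal-like nuclei held 586 and 729 CPM (log2 0.32, 0.12 to 0.51, and 0.54 both after log-normalization and without nuclei rich in neuronal UMIs), with most in cluster 23 (1106 and 1579) and less in cluster 22 (259 and 321). The levels of these cell types did not differ beyond counting error in either library. A UMI of Apod was found in 73.2% of the vehicle and 79.0% of the OLE oligodendrocyte-like nuclei (37.0% and 46.4% thinned), against 17.5% and 17.0% of the far deeper glutamatergic-like nuclei (1.21% and 1.45% thinned). Microglia-like nuclei followed with 68.2 and 83.5 CPM (log2 0.29, −0.25 to 0.83). Astrocyte-like nuclei, so rich in Apoe and Clu, held 39 and 20 Apod UMIs, fewer in OLE, and OPC-like nuclei 30 and 22. Neurons held little Apod, with 10.01 and 9.29 CPM in GABAergic-like and 9.03 and 9.19 in glutamatergic-like nuclei, which did not differ from each other or between libraries beyond counting error.

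None of the 3 ABC transporters passed the fold in any cell type compared. Abca1 was highest in microglia-like nuclei, with 321 CPM in vehicle (284 to 360) and 303 in OLE (264 to 346), a log2 ratio of −0.08 (−0.34 to 0.18) that turned to 0.13 with thinned nuclei. Astrocyte-like nuclei followed with 242 and 249 CPM (log2 0.05, −0.24 to 0.33), where the ratio turned to −0.24 with no doublets left out and to −0.69 after log-normalization, the setting that also took Apoe to 0.28. OPC-like nuclei held 144 and 149 CPM and vascular leptomeningeal-like nuclei 155 and 138, which did not differ from each other in either library. Oligodendrocyte-like nuclei held 87.1 and 87.9, GABAergic-like nuclei 20.2 and 21.7, and glutamatergic-like nuclei 6.95 and 7.58 CPM. All 7 intervals of the Abca1 ratio included 0. The share of nuclei with an Abca1 UMI, thinned to 1000 UMIs, was 24.4% in vehicle and 28.0% in OLE for microglia-like (51.3% and 46.3% unthinned) and 21.5% and 19.1% for astrocyte-like nuclei (71.9% and 72.1%), against 0.603% and 0.724% for glutamatergic-like nuclei (12.6% and 12.4%).

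Abcg1, which adds cholesterol to particles that already hold lipid, was nearly absent from astrocyte-like nuclei. They held 2 Abcg1 UMIs in each library, in 1.65% of the vehicle (0.201% to 5.84%) and 1.47% of the OLE nuclei (0.179% to 5.21%). Vascular leptomeningeal-like nuclei held 3 and 2 UMIs. In contrast, oligodendrocyte-like nuclei held 218 and 248 UMIs, or 101 CPM in vehicle (87.6 to 115) and 139.8 in OLE (123 to 158), a log2 ratio of 0.48 (0.21 to 0.75) just under the fold, which reached 0.53 without nuclei rich in mitochondrial UMIs, 0.51 without nuclei rich in neuronal UMIs and 0.52 with the length class subtracted. Microglia-like nuclei held 105 and 83.5 CPM (log2 −0.33, −0.82 to 0.16) and OPC-like nuclei 80.5 and 105 (log2 0.38, −0.14 to 0.90). In vehicle microglia-like, oligodendrocyte-like and OPC-like nuclei did not differ from neighbour to neighbour, and in OLE oligodendrocyte-like nuclei stood first. Glutamatergic-like nuclei, at 29.5 and 33.6 CPM (log2 0.19, 0.08 to 0.30, turned to −0.02 with thinned nuclei), did not differ from GABAergic-like nuclei, at 27.1 and 32.5 (log2 0.26, −0.03 to 0.55). A ribosomal RNA gene on the same strand lies within Abcg1.

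Abca7, a relative of Abca1 that moves phospholipid, had enough UMIs in neurons only. Glutamatergic-like nuclei held 1002 UMIs in vehicle and 842 in OLE, or 21.4 and 19.9 CPM (log2 −0.11, −0.24 to 0.03). GABAergic-like nuclei held 19.0 and 17.96 CPM (log2 −0.08, −0.45 to 0.29). In CPM the highest levels were those of microglia-like nuclei, at 36.4 and 37.6, from 32 and 27 UMIs. Oligodendrocyte-like nuclei held 30 and 45 UMIs, OPC-like nuclei 13 and 12, vascular leptomeningeal-like nuclei 3 and 8, while those like astrocytes held 4 and 2. Apart from microglia-like nuclei in vehicle, which stood above the rest, neighbours in the order did not differ beyond counting error in either library.

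Among the receptors no ratio passed the fold, and Lrp1 and Sorl1 had opposite signs in different cell types. Lrp1 was highest in microglia-like nuclei, at 578 CPM in vehicle (528 to 630.0) and 483 in OLE (433 to 536), a log2 ratio of −0.26 (−0.46 to −0.06). OPC-like nuclei held 329 and 366 CPM (log2 0.16, −0.11 to 0.42), vascular leptomeningeal-like nuclei 297 and 329 (log2 0.15, −0.13 to 0.43) and astrocyte-like nuclei 274 and 270.0 (log2 −0.02, −0.29 to 0.25, above 0 with the median of the cell type or of the length class subtracted). Both kinds of neuron stood slightly higher in OLE. GABAergic-like nuclei held 93.5 and 108 CPM (log2 0.20, 0.05 to 0.36, turned to −0.01 as mean UMIs per nucleus), and glutamatergic-like nuclei 97.0 and 104 (log2 0.11, 0.05 to 0.17, turned to −0.15 with thinned nuclei). In vehicle OPC-like, vascular leptomeningeal-like and astrocyte-like nuclei did not differ from neighbour to neighbour, nor did the neuronal classes differ from each other in either library. Oligodendrocyte-like nuclei stood out by how little Lrp1 they held, 42 and 33 UMIs, or 19.4 and 18.6 CPM, with a UMI in 6.50% and 5.68% of the nuclei (2.23% and 2.08% thinned). In microglia-like nuclei these shares were 68.5% and 64.1% (40.8% and 38.1% thinned). The antisense gene Gm16217 overlaps Lrp1 and had 3 UMIs over all nuclei.

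Vldlr, the very-low-density lipoprotein receptor, which also binds reelin, was highest in oligodendrocyte-like nuclei. They held 281 and 259 UMIs, or 130 CPM in vehicle and 146 in OLE (log2 0.17, −0.08 to 0.42). Their share of nuclei with a Vldlr UMI was 34.5% in both libraries, or 11.8% and 12.7% thinned, against 13.2% and 11.03% unthinned in the deeper astrocyte-like nuclei, which held 19 and 16 UMIs. GABAergic-like nuclei held 40.9 and 55.1 CPM (log2 0.43, 0.20 to 0.66) and glutamatergic-like nuclei 26.3 and 32.5 (log2 0.31, 0.19 to 0.42). OPC-like nuclei held 44 and 41 UMIs, microglia-like nuclei 30 and 13, and vascular leptomeningeal-like nuclei 6 and 17. In vehicle OPC-like, GABAergic-like, microglia-like, glutamatergic-like and astrocyte-like nuclei did not differ from neighbour to neighbour, and in OLE the levels of the neurons differed.

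Sorl1, a sorting receptor that steers the amyloid precursor protein and lipoproteins through endosomes, had UMIs in all 7 cell types, though few in OPC-like nuclei. Glutamatergic-like nuclei held 5916 UMIs in vehicle and 5866 in OLE, or 127 and 139 CPM (log2 0.13, 0.08 to 0.18). Astrocyte-like nuclei held 145 and 125 (log2 −0.22, −0.61 to 0.17), microglia-like nuclei 106 and 94.6 (log2 −0.16, −0.63 to 0.31) and GABAergic-like nuclei 77.8 and 84.4 (log2 0.12, −0.06 to 0.29, −0.10 as mean UMIs per nucleus). The astrocyte ratio turned to 0.06 with no doublets left out. Without the border macrophage-like and unnamed subclusters, the microglia ratio reached −0.52, past the fold. Oligodendrocyte-like nuclei held less in OLE, 98.6 CPM in vehicle and 77.8 in OLE (214 and 138 UMIs, log2 −0.34, −0.66 to −0.03), and passed the fold downward at −0.68 with thinned nuclei. Vascular leptomeningeal-like nuclei held 54 and 61 UMIs (log2 0.10, −0.45 to 0.66). Neighbours in the order did not differ beyond counting error in either library, though levels further apart did, with glutamatergic-like at 127 CPM (123 to 129.9) and GABAergic-like nuclei at 77.8 (71.3 to 84.6) in vehicle. The exception was that OPC-like nuclei, with 10 and 12 UMIs, or 12.99 and 18.8 CPM, stood below the rest. The antisense gene Gm16214 overlaps Sorl1 and had 122 UMIs over all nuclei, and whether the counting used strand is not given in the sources used here.

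The 13 glutamatergic-like clusters differed among themselves most in Sorl1. In vehicle its level ran from 19.5 CPM in cluster 12 to 278 in cluster 17, and in OLE the same clusters held 17.1 and 326. Apoe ran from 24.8 to 55.0 CPM and Clu from 13.2 to 26.2 in vehicle, a narrow range by comparison, and in OLE Apoe ran from 30.2 to 57.1 and Clu from 19.1 to 35.7. The Clu ratio was above 0 in all 10 clusters with enough UMIs (0.21 to 0.80), and 6 intervals lay above 0. The Apoe ratio was above 0 in 8 of 13 clusters (−0.68 to 0.76), with 2 intervals above 0 and 1 below. Lrp1 was above 0 in 10 of 13 clusters (−0.11 to 0.39), Abcg1 in 11 of 13 (−0.30 to 0.49), Vldlr in 10 of 11 (−0.09 to 0.58) and Sorl1 in 10 of 12 (−0.34 to 0.39). In that order, 2, 1, 3 and 5 intervals lay above 0, and 1 Sorl1 interval lay below 0. Abca7 was above 0 in 3 of 10 clusters (−0.48 to 0.37), with 1 interval below 0. Only 2 clusters had enough UMIs of Abca1 (0.05 and 0.80, with 1 interval above 0) and 2 of Apod (−0.09 and 0.29).

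Other genes of lipid carriage were counted in the same way. Over all genes compared, 3.54% to 10.7% were higher past the fold by cell type and 0.484% to 6.39% lower. With so few genes per list, small counts cannot be told from these shares. Of 10 further apolipoproteins none had enough UMIs in glia or GABAergic-like nuclei, and in glutamatergic-like nuclei Apoa1, the main protein of high-density lipoprotein in plasma, had 50 UMIs in vehicle and 83 in OLE (log2 0.87, 0.35 to 1.41), past the fold, and Apoh 66 and 60 (log2 0.01). Of 18 further transporters, lipases and sterol enzymes, none was past the fold in astrocyte-like (of 3), microglia-like (of 7), OPC-like (of 2), vascular leptomeningeal-like (of 3), GABAergic-like (of 11) or glutamatergic-like nuclei (of 15). The exception was the pair that moves cholesterol out of lysosomes. Npc1 was at 93.1 CPM in vehicle and 165 in OLE in oligodendrocyte-like nuclei (log2 0.83, 0.56 to 1.09), and Npc2 at 33.2 and 51.3 (log2 0.63, 0.17 to 1.09), 2 of the 10 genes compared there. In microglia-like nuclei the most abundant of the list were Abca9 (219 and 303 CPM, log2 0.47, 0.18 to 0.75), the lipase Lpl (log2 0.26) and Nceh1 (log2 −0.01).

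Receptors beyond the members, 22 with their partners, were counted beside the same shares over all genes. None was past the fold in astrocyte-like (of 9), microglia-like (of 11), oligodendrocyte-like (of 12) or OPC-like nuclei (of 6). Lrpap1, the ER chaperone of the LDL receptor family, was at 38.6 CPM in vehicle and 65.5 in OLE in GABAergic-like nuclei (log2 0.76, 0.54 to 0.99) and at 35.4 and 54.9 in glutamatergic-like nuclei (log2 0.63, 0.54 to 0.73). It was 1 of 13 genes past the fold in the former, and with Lrp10 (131 and 200 UMIs, log2 0.75) 1 of 2 of 18 in the latter. In vascular leptomeningeal-like nuclei, of 7 genes, Reln, the ligand of Vldlr, had 8 UMIs in vehicle and 127 in OLE (log2 3.91, 2.89 to 5.15), in the class where GABAergic markers went from 386 to 1063 CPM, and the part of these in the Reln ratio was not tested. Sorcs1 was lower (76 and 56 UMIs, log2 −0.52). In microglia-like nuclei Lrp1b, a large relative of Lrp1, had a log2 ratio of −0.09, Mylip, a ubiquitin ligase that sends LDL receptors to degradation, stood at 406 and 331 CPM (log2 −0.29, −0.54 to −0.05), and Dab1, an adaptor below Vldlr, at 613 and 505 (log2 −0.28, −0.48 to −0.08).

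Of 13 transcriptional regulators of lipid metabolism, Srebf1, which drives genes of fatty acid synthesis, was past the fold in astrocyte-like nuclei with 70.7 CPM in vehicle and 111 in OLE (55 and 97 UMIs, log2 0.65, 0.16 to 1.15), 1 of 4 compared. Insig1, which holds sterol regulatory proteins in the ER, was higher in GABAergic-like nuclei (73 and 111 UMIs, log2 0.70), 1 of 9. Srebf2, the 1 gene compared in OPC-like nuclei, was past the fold downward there, though not beyond counting error (72 and 41 UMIs, log2 −0.54, −1.13 to 0.03). Ppara was lower in vascular leptomeningeal-like nuclei (71 and 50 UMIs, log2 −0.58, −1.13 to −0.04), 1 of 2. None passed the fold in microglia-like (of 2), oligodendrocyte-like (of 6) or glutamatergic-like nuclei (of 12). These counts, too, are too small to be told from the shares over all genes.

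Across 14 points, the 7 cell types in 2 libraries, the genes with the most similar profile were sought among 10405 genes by the Pearson correlation of log2 levels with 1 added. The points share their libraries and their depths by cell type, so the values are descriptions. Apoe was most like Tmed5 (r = 0.973), Cd63 (0.968) and Chd4 (0.962), and its correlation with the member Abca1 was 0.961, although their ratios between the libraries differed. Clu was most like Atp1b2 (0.976), Ndrg2 (0.962) and Id2 (0.958), and Apod most like Cldn11 (0.970), Cryab (0.967) and Ptma (0.960). Among the transporters, Abca1 was most like Peli2 (0.991), Crlf3 (0.976) and Tmed5 (0.969), Abcg1 most like Csmd3 (0.975), Zfp704 (0.964) and Zdhhc14 (0.963), and Abca7 most like Cdk5r1 (0.959), Hist3h2ba (0.916) and Usp21 (0.915). Among the receptors, Lrp1 was most like Chic2 (0.940), P3h3 (0.930) and Pid1 (0.927). Vldlr was most like Kcna6 (0.972), Dusp15 (0.924) and Gm26936 (0.919), and Sorl1 most like Sh2d4b (0.918), Abcb9 (0.914) and Fbxl18 (0.876). Between members the values ran from 0.961 for Apoe and Abca1 to −0.731 for Clu and Abca7, with 0.835 for Abcg1 and Abca7 and −0.692 for Lrp1 and Vldlr.

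On the GRCm38 assembly Apoe (ENSMUSG00000002985) lies on the minus strand of chromosome 7 from 19696109 to 19699188, Clu (ENSMUSG00000022037) on the plus strand of chromosome 14 from 65968483 to 65981547 and Apod (ENSMUSG00000022548) on the minus strand of chromosome 16 from 31296192 to 31314808. Abca1 (ENSMUSG00000015243) spans 129 kb of chromosome 4 from 53030787 to 53159895 on the minus strand, Abcg1 (ENSMUSG00000024030) 60.3 kb of chromosome 17 from 31057675 to 31117988 on the plus strand and Abca7 (ENSMUSG00000035722) 19.1 kb of chromosome 10 from 79996494 to 80015572 on the plus strand. Of the receptors, Lrp1 (ENSMUSG00000040249) is on chromosome 10 from 127538161 to 127621148 on the minus strand, Vldlr (ENSMUSG00000024924) on chromosome 19 from 27216484 to 27254231 on the plus strand and Sorl1 (ENSMUSG00000049313) on chromosome 9 from 41964720 to 42124297 on the minus strand. The carriers are the shortest by group, at 3.08, 13.1 and 18.6 kb, and Sorl1 at 160 kb is the longest of the 9. UMIs were counted over exons and introns, so a longer gene offers more intronic sequence.

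Since Apoe and Abca1 had like profiles over cell types but differed in their ratios, the 250 bases before the start of each are shown from RefSeq (GRCm38.p6), which held promoters of 7 of the 9 genes, Clu and Abcg1 not among them. Capitals mark motifs found on either strand of the sequences shown. The GC box, with the letters GGGCGG, occurs in the Abca1 sequence at 163 and 97 bases before the start, and in 32.7% of 32851 promoters of this length. The E-box, which reads CACGTG, lies at 147 bases before the Abca1 start and is in 6.02% of promoters. The TATA box, written TATAAA, lies at 29 bases before the Abca1 start and is in 12.4% of promoters. The nuclear receptor half-site in the exact form AGGTCA, found in 14.0% of promoters, is in neither sequence. Variants of the half-site were not searched. The Apoe sequence, chr7:19699189-19699438 on the minus strand, is 57.2% G and C and holds none of the 4 motifs. It is the window before the annotated gene and 1 of 3 RefSeq windows of Apoe, and the second of them, not shown, holds the TATA box motif at 100 and 96 bases before its start. That of Abca1, chr4:53159896-53160145 on the minus strand, is 61.6% G and C. A match is a description of letters and not of a bound site.
Apoe: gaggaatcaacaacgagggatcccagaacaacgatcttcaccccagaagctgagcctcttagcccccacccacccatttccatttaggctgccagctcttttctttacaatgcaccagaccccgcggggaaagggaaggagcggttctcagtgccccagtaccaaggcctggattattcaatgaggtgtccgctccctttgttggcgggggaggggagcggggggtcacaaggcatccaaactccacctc
Abca1: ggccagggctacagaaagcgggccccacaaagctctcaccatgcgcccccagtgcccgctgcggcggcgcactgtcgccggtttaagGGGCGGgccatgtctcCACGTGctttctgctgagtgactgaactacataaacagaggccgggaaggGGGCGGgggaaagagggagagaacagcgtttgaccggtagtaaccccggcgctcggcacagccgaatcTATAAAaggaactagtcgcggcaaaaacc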

How the data were processed

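The authors isolated nuclei from frozen entorhinal cortex, built libraries with 10X 3′ v3 chemistry, aligned reads with Cell Ranger 3.0.1 against mm10 pre-mRNA, introns included, and deposited whole-number UMI counts per gene and nucleus, without normalization. Their depth per library is given with the results. The 9 members, the gene lists and the alternatives were chosen with earlier results of these data known, and further alternatives after seeing the data.

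Likely doublets were scored with Scrublet (scanpy 1.11.5), whose automatic threshold marked 0.104% of vehicle and 0.130% of OLE nuclei, so nuclei in the top 5% of scores per library were left out (331 and 289). Under R 4.3.3, the SCTransform step of Seurat 5.3.0 (package sctransform 0.4.2) prepared the counts with 3000 variable genes, the 6 members among them dropped, and nuclei were clustered by Louvain on 30 components and 20 neighbours at resolution 0.4, giving 25 clusters. Microglia-like nuclei were clustered again on 15 components at resolution 0.3. A name needed at least 3 markers at 4 times the 10th percentile of clusters or more, in at least 10% of nuclei. Clusters raising 50% or more of another class's markers, with no marker of their own in the top 10 genes, got no name. Subclusters needed 3 markers raised 1.5-fold with a pseudocount of 20 CPM, 1 of them in the top 10. These last rules came after a look at the clusters.

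For each cell type of a library the UMIs were added up and scaled to 1000000 UMIs (CPM). Shares were also taken with nuclei thinned to 1000 UMIs. All members were named. Genes of the further lists were open to naming where they were past the fold, in lists with at most 4 such genes, or among the 3 with most UMIs, and of other genes the 3 most alike to a member among those with at least 1000 UMIs were named. Alternatives were no doublet removal, log-normalization, resolution 0.8, members kept, nuclei with at least 5% mitochondrial UMIs or many neuronal UMIs left out, other scalings, thinning, other minimums of UMIs (50 and 200), the top 2 nuclei left out, subclusters left out and centring by length class. Positions were matched for 31011 of 31053 genes (99.9%). Python 3.11.15 was used with scipy 1.17.1, numpy 2.4.6 and matplotlib 3.10.9, and tables with pandas 2.3.3, and the calculations were tested on simulated data.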

Additional observations from a re-analysis of the deposited data

Results flagged for a closer look

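Lrp1 and Sorl1 had log2 ratios of opposite sign in different cell types, with intervals that did not include 0. The Lrp1 ratio of OLE to vehicle was −0.26 in microglia-like nuclei but above 0 in neurons, at 0.20 for GABAergic-like and 0.11 for glutamatergic-like nuclei. The Sorl1 ratio was −0.34 for oligodendrocyte-like nuclei but 0.13 for glutamatergic-like nuclei. None of these ratios reached 0.5 or −0.5, the neuronal Lrp1 ratios changed sign under alternatives given below, Sorl1 in oligodendrocyte-like nuclei reached −0.68 with thinned nuclei, and the difference between the cell types was not tested.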

How the results depend on the processing

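The Apoe ratio stayed past the fold in all 12 alternatives for oligodendrocyte-like (0.78 to 1.02) and OPC-like nuclei (0.81 to 1.05), as did Clu in OPC-like (1.005 to 1.24, 11 alternatives), vascular leptomeningeal-like (1.39 to 1.76, 9) and GABAergic-like nuclei (0.51 to 0.73, 10). With no doublets left out, Apoe was at 0.68 in astrocyte-like nuclei, a class that then also took in 355 vehicle and 418 OLE nuclei of the unnamed clusters, and at 0.81 in OPC-like nuclei, and 1 of 9 members was higher past the fold in glutamatergic-like nuclei. After log-normalization, 0 of 5 members were higher and 2 of 5 lower in astrocyte-like nuclei, with Apoe at 0.28 and Clu at 0.12, and Apoe was at 1.28 in vascular leptomeningeal-like nuclei. Without nuclei of at least 5% mitochondrial UMIs, Apoe was at 0.90 in astrocyte-like, 0.75 in microglia-like and 1.64 in vascular leptomeningeal-like nuclei, where 1 of 4 members was higher. Without glial nuclei rich in neuronal UMIs, the last was 0.61. As mean UMIs per nucleus, Apoe was at 0.88 and Apod at 0.38 in oligodendrocyte-like nuclei, leaving 1 of 7 members higher, and Lrp1 turned to −0.0096 in GABAergic-like nuclei. Thinned to 1000 UMIs, Apoe was at 0.89 and Clu at 0.54 in astrocyte-like nuclei, Apoe at 0.92 in vascular leptomeningeal-like nuclei, and in glutamatergic-like nuclei Apoe (−0.20), Abcg1 (−0.015) and Lrp1 (−0.15) turned. Of the members with enough thinned UMIs, 1 of 5 was then higher and 1 of 5 lower in oligodendrocyte-like, 1 of 1 higher in OPC-like, 1 of 2 in vascular leptomeningeal-like, 0 of 0 in GABAergic-like and 1 of 6 in glutamatergic-like nuclei. With at least 50 UMIs 1 of 6 members, Apod, was lower in astrocyte-like nuclei, and with at least 200 UMIs 1 of 3 was higher in OPC-like nuclei. Alternatives chosen after seeing the data were the next 3. Without the top 2 nuclei Apoe was at 0.38 in GABAergic-like nuclei, with 1 of 9 members higher, and at 0.93 in vascular leptomeningeal-like nuclei. With the length class subtracted, Apoe was at 0.82 in astrocyte-like, 0.44 in microglia-like (0 of 6 members higher), 0.78 in oligodendrocyte-like, 0.46 in vascular leptomeningeal-like (1 of 6) and 0.61 in GABAergic-like nuclei. Without the other microglial subclusters 1 of 6 members, Sorl1 at −0.52, was lower. Of the other values, 373 log2 ratios under the fold stayed within their interval and 15 moved, 486 levels stayed and 54 moved, and 35 had no value, 28 of them from too few thinned UMIs. Beyond the classes named above, the cause of these changes was not tested. Small classes and 1 library per condition limit these data, and mice, preparation and treatment cannot be told apart.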
